A study of Mus musculus with 7 samples.

Results

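The genes described here encode the heat shock proteins and chaperones of the cytosol and nucleus of mouse embryonic fibroblasts (MEFs). They were chosen by name and by family, not by a threshold on their values, as 43 gene symbols of 49382 in the expression table. The choice was made with earlier results of these data known. The families are HSP70 (4 genes), HSP110 (3), HSP90 (2), co-chaperones of HSP90 and HSP70 (8), small heat shock proteins (3), HSP40 or J-domain proteins (9), BAG proteins (4), heat shock factors (2) and the subunits of the chaperonin CCT (8). Each symbol stood on 1 row, and all 43 averaged 2 TPM or more. TPM is a transcript's share of a library, corrected for its length and scaled to a total of 1000000. Mean levels of the members ran from 13.7 TPM to 2838 TPM, with a median of 119 TPM.

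RNA-seq comprised 7 libraries of wild type MEFs, harvested from embryos of days 13.5 to 14.4 and used at passages 3 to 7. The control library came from cells with no stress, and the labels give no time for it. Glucose depletion, glutamine depletion and hypoxia (0.1% oxygen) lasted 10 h, as did ER stress from 1 µM thapsigargin, a blocker of the calcium pump of the endoplasmic reticulum (ER). Oxidative stress from 10 µM sodium arsenite, a compound that reacts with protein thiols, and osmotic stress from 100 mM added NaCl lasted 3 h, so that the kind of stress and its duration cannot be told apart between these conditions and the rest. Each condition had 1 library, so no difference could be set against a spread between replicates, and no p-value or SD is given. A change is the difference of log2(TPM + 1) from the control library, a scale that understates the change of genes at low levels. A gene is said to have risen or fallen only where it changed by more than 2-fold on this scale. All 6 comparisons share the control library, so an error in that library would enter each of them.

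Chaperones bind unfolded or newly made proteins and keep them from aggregating while they fold. HSP70 does this in cycles of ATP hydrolysis, in which HSP40 proteins deliver the client and start hydrolysis, and HSP110 and BAG proteins release the nucleotide. HSP90 acts later on kinases, steroid receptors and other clients, small heat shock proteins hold unfolded clients without ATP, and CCT folds actin and tubulin in a closed chamber. Heat, thiol-reactive metals and other causes of protein unfolding release the transcription factor HSF1 from inhibition, and HSF1 then binds heat shock elements, inverted repeats of the unit nGAAn, in the promoters of its targets.

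In oxidative stress 8 of the 43 members rose and 0 fell. The 8 were Hspa1a, Hspa1b, Hspa8, Hsph1, Dnajb1, Dnajb4, Hspb1 and Bag3, which belong to 5 of the families. Among the 12909 genes that averaged 2 TPM or more, 3.94% rose and 4.85% fell in the same library. In osmotic stress 3 members rose (Hspa1a, Hspa1b and Hspa4l) and 1 fell (Fkbp5), against 3.08% and 8.76% of all genes. ER stress raised 0 members and 6 fell (Cryab, Hspa1a, Hspb1, Dnajb4, Fkbp5 and Hspa1b), against 8.60% and 11.0% of all genes. Glucose depletion (1.83% of all genes up and 2.41% down), glutamine depletion (3.21% up and 3.21% down) and hypoxia (3.57% up and 2.64% down) took 0 members past 2-fold in either direction. In all, 11 members passed 2-fold in at least 1 condition and 32 in none.

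Low genes pass 2-fold more easily, and all 43 members also averaged 10 TPM or more. Among the 8819 genes at or above that level, 2.63% rose and 2.83% fell under arsenite, 1.79% and 4.92% under NaCl, and 7.67% and 9.47% in ER stress. The shares were 0.748% and 1.04% in glucose depletion, 2.43% and 1.61% in glutamine depletion, and 2.00% and 1.49% in hypoxia. The 43 members had a median change of 0.19 in oxidative stress, 0.04 in osmotic stress, 0.10 in ER stress, -0.18 in hypoxia, 0.04 in glutamine depletion and 0.03 in glucose depletion. All genes had a median of -0.16 under oxidative and -0.12 under osmotic stress, and relative to it the medians of the members were 0.35 and 0.16. In the other conditions the median of all genes lay between -0.09 and 0.00. The number of members within 0.5 of the control on the log2 scale was 42 in glucose depletion, 40 in glutamine depletion, 40 in hypoxia, 32 in osmotic stress, 30 in oxidative stress and 29 in ER stress.

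**Figure D1:**
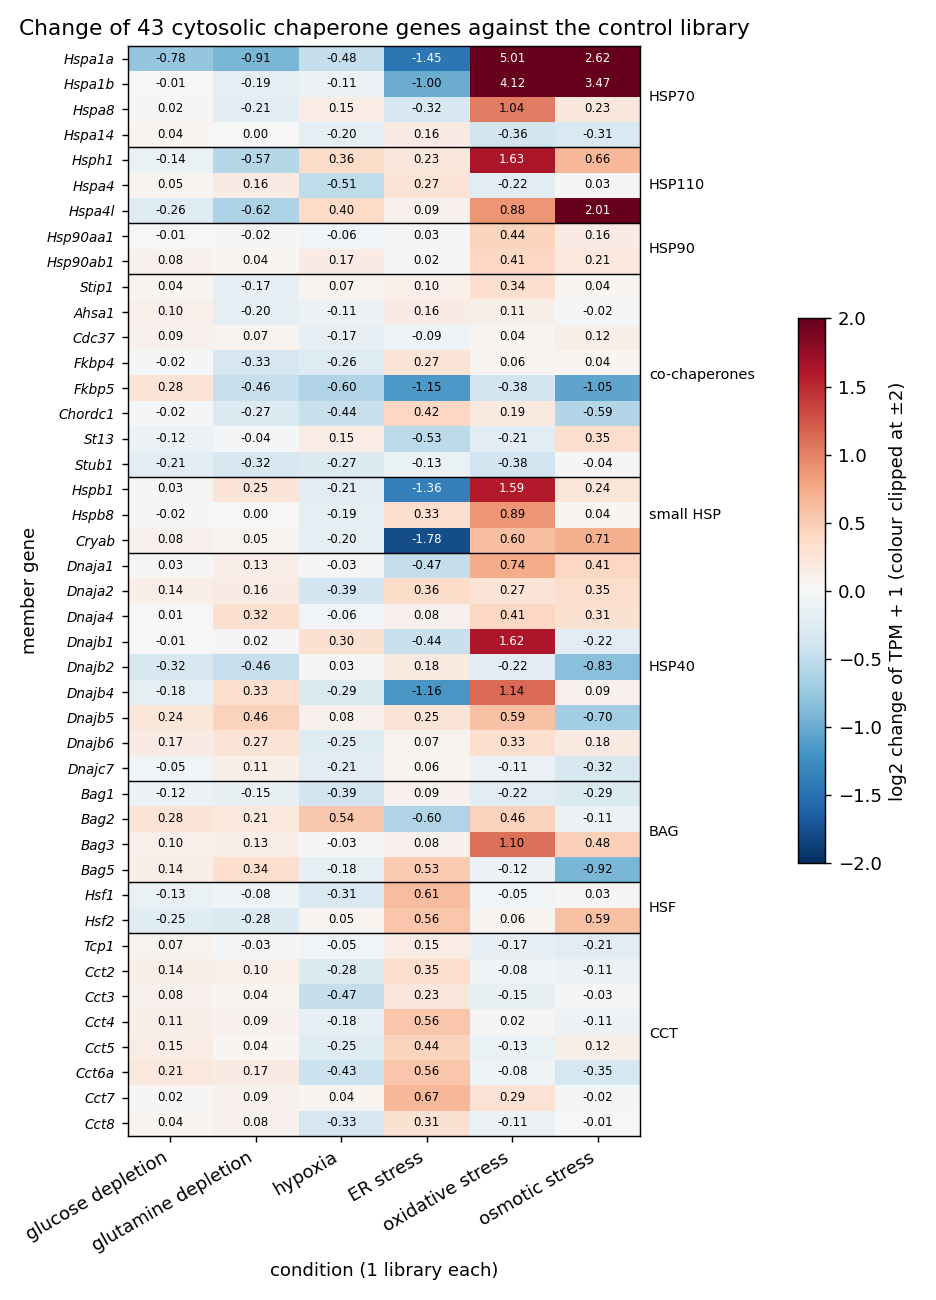
Change of each of the 43 members against the control library, in log2(TPM + 1), with genes in rows by family, the 6 conditions in columns (1 library each) and colour clipped at 2 in either direction. The rises are in the oxidative and osmotic columns, up to 5.01 for Hspa1a, and the falls are mostly in the ER stress column, down to -1.78 for Cryab.

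Hspa1a and Hspa1b, neighbouring genes for the stress-inducible HSP70, had the largest changes of any member. Hspa1a (ENSMUSG00000091971; GRCm38 chr17:34969190-34972156, minus strand) was at 7.52 TPM in control, 3.95 in glucose depletion, 3.55 in glutamine depletion, 5.10 in hypoxia, 2.11 in ER stress, 273 in oxidative stress and 51.4 in osmotic stress. Hspa1b (ENSMUSG00000090877; chr17:34956436-34959238, minus strand) was at 22.8, 22.6, 19.8, 21.0, 10.8, 413 and 263 TPM in the same order. Both genes were highest in oxidative stress, next in osmotic stress and lowest in ER stress. Their transcripts are nearly alike: 63.8% of the 31-base words of Hspa1a transcripts also occur in Hspa1b transcripts, so how reads were split between them is uncertain and their sum is the firmer value.

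The sum of Hspa1a and Hspa1b was 30.3 TPM in control, 26.5 in glucose depletion, 23.3 in glutamine depletion, 26.1 in hypoxia, 13.0 in ER stress, 685 in oxidative stress and 314 in osmotic stress. On the log2 scale the sum rose by 4.46 under arsenite and 3.33 under NaCl, and it fell by 1.16 in ER stress. Its differences from control were -0.21 under hypoxia, -0.36 without glutamine and -0.18 without glucose. Hspa1a made up 39.8% of the sum in oxidative stress, 24.8% in control and 14.9% to 19.5% in the other 5 libraries. Separately, the log2 change in oxidative stress was 5.01 for Hspa1a and 4.12 for Hspa1b, while in osmotic stress that of Hspa1b (3.47) was above that of Hspa1a (2.62). The change of Hspa1b in ER stress, -1.0, lay at the threshold. With a pseudocount of 5 TPM the falls of Hspa1a (-0.82), Hspa1b (-0.81) and their sum (-0.97) in ER stress were within 2-fold.

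The 250 bases before the annotated starts of the pair are shown because both genes rose most. Those of Hspb1, which also rose in oxidative stress, are shown with them. So are those of Bag3, which rose in the same library but held no exact match to the motif searched for. The sequences are those of RefSeq on GRCm38.p6, 5′ to 3′ on the strand of the gene, and capitals mark a pair of facing units (GAANNTTC or TTCNNGAA, each its own reverse complement, so that both strands are covered). The position is chr17:34972157-34972406 (minus strand) for Hspa1a, chr17:34959239-34959488 (minus strand) for Hspa1b, chr5:135887669-135887918 (plus strand) for Hspb1 and chr7:128523333-128523582 (plus strand) for Bag3.
Hspa1a: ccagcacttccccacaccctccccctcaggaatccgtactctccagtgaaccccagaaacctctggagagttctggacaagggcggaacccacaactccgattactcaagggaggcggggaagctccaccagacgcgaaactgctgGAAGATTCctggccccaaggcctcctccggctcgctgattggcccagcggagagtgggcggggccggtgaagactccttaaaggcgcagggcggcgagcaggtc
Hspa1b: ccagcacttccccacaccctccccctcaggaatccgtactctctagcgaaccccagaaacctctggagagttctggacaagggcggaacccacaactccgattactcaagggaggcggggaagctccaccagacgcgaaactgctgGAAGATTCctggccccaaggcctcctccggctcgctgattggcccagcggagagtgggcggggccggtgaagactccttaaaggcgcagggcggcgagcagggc
Hspb1: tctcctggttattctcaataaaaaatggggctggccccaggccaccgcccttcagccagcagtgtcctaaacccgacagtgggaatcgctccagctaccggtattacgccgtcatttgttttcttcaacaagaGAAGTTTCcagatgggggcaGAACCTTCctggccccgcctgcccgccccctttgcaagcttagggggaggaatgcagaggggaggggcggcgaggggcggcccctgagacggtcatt
Bag3: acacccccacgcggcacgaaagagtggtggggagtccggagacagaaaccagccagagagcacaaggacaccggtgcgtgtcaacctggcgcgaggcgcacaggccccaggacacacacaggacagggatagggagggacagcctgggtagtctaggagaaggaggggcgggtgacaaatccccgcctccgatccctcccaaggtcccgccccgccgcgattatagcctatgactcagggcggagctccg
The windows of Hspa1a and Hspa1b differed at 3 of 250 bases, and the pair of units began 104 bases before the start in both. Hspb1 held pairs that began 117 and 97 bases before its start.

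A gene with several annotated starts had several windows, and it was counted if any of them held a pair of facing units. There were 32851 windows for 27025 genes, and the shares were not corrected for the number of windows per gene. Such a pair stood in the windows of 13 of the 36 members with a RefSeq entry (36.1%). The corresponding share was 12.0% of the 9014 genes that averaged 2 TPM or more and had an entry, and 14.5% of all 27025 genes with an entry. Of the 7 members that rose in oxidative stress and had an entry, 5 held a pair (Hspa1a, Hspa1b, Hspb1, Hsph1 and Dnajb4) and Bag3 and Dnajb1 did not. Among the 29 other members 8 held a pair, namely Cct2, Cct5, Cdc37, Dnaja1, Dnaja4, Dnajb6, Fkbp4 and Stub1, and none of them passed 2-fold in any library. Hspa1a and Hspa1b, whose windows are nearly alike, are not independent of each other in these counts. Overlapping exact pairs, in which 3 units follow each other without a mismatch, were found in 1 member (Dnajb6) and in 0.444% of the measured genes. Cct2, Cct5, Dnaja1, Dnaja4 and Dnajb4 had more than 1 window and held a pair in only 1 of them. Cct4, Cryab, Hsf1, Hsp90aa1, Hsp90ab1, Hspa8 and St13 had no entry. Only exact matches were searched for, so heat shock elements with a mismatched base are neither marked nor counted, in these members or in the background. A match is a description of letters, and binding was not measured.

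Hspa8 (GRCm38 chr9:40800984-40810087), the HSP70 that cells make without stress, was the most abundant member in each library. Its level was 2473 TPM in control, 2515 in glucose depletion, 2141 in glutamine depletion, 2748 in hypoxia, 1983 in ER stress, 5102 in oxidative stress and 2907 in osmotic stress. It rose in oxidative stress (log2 change 1.04, close to the threshold), and its other changes lay between -0.32 and 0.23. In TPM the gain of Hspa8 in oxidative stress was larger than that of the inducible pair, although the fold was far smaller. The level of Hspa8 over the Hspa1a and Hspa1b sum was 81.7 in control, 153 in ER stress, 9.24 in osmotic stress and 7.45 in oxidative stress. Hspa14, an HSP70 that works with the ribosome on nascent chains, stayed between 37.8 and 54.5 TPM, and its lowest level was in oxidative stress (log2 change -0.36).

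**Figure D2:**
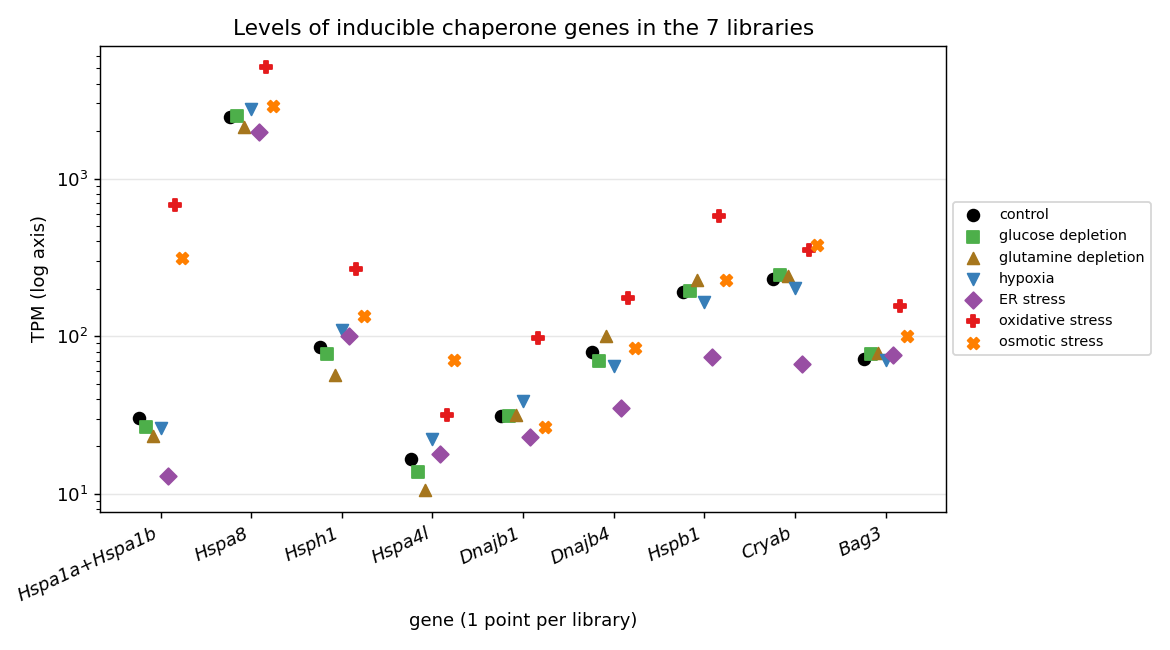
Levels in TPM (log axis) of the Hspa1a and Hspa1b sum and of 8 other members, with 1 point for each of the 7 libraries. Oxidative stress gives the highest point except for Hspa4l and Cryab, which are highest in osmotic stress at 70.3 and 378 TPM, and ER stress gives the lowest point for 6 of the 9, among them Cryab at 66.4 TPM.

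The HSP110 proteins, relatives of HSP70 that exchange its nucleotide, did not move together. Hsph1 (chr5:149614287-149636376, minus strand) was at 85.5 TPM in control, 77.4 in glucose depletion, 57.1 in glutamine depletion, 110.1 in hypoxia, 101 in ER stress, 267 in oxidative stress and 135 in osmotic stress. It rose in oxidative stress (1.63) and its value in osmotic stress, 0.66, fell short of 2-fold. Hspa4l (chr3:40744495-40796103, plus strand), known also as a chaperone of hyperosmotic kidney medulla, was at 16.7, 13.8, 10.5, 22.4, 17.8, 31.5 and 70.3 TPM in that order. Hspa4l was the only member that was highest in osmotic stress by more than 2-fold over control, with a log2 change of 2.01 there and 0.88 in oxidative stress. Hspa4, the third of the family, remained between 157 TPM in hypoxia and 271 TPM in ER stress, with changes from -0.51 to 0.27. In glutamine depletion Hsph1 (-0.57) and Hspa4l (-0.62) had their lowest levels of the 7 libraries.

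HSP90 is encoded by Hsp90aa1, the more inducible form, and Hsp90ab1, the constitutive form. Hsp90aa1 was at 791 TPM in control and 1071 TPM in oxidative stress (log2 change 0.44), and lay between 757 and 886 TPM in the other conditions. Hsp90ab1 went from 1282 TPM in control to 1707 TPM in oxidative stress (0.41), with 1303 to 1479 TPM elsewhere. Neither gene passed 2-fold in any library, and both were highest in oxidative stress. Hsp90ab1 stood at 1.59 to 1.91 times the level of Hsp90aa1 in all 7 libraries.

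Of the 8 co-chaperones of HSP90 and HSP70, Fkbp5 alone passed 2-fold, and only downwards. Fkbp5, an immunophilin of steroid receptor complexes and a known target of the glucocorticoid receptor, was at 23.6 TPM in control, 28.8 in glucose depletion, 16.9 in glutamine depletion, 15.2 in hypoxia, 10.1 in ER stress, 17.9 in oxidative stress and 10.9 in osmotic stress. It fell in ER stress (-1.15) and in osmotic stress (-1.05). Relative to the median of all genes the value in osmotic stress is -0.93, within 2-fold, and with a pseudocount of 5 TPM both falls are (-0.92 and -0.85). Stip1, which links HSP70 to HSP90, and Ahsa1, which activates the HSP90 ATPase, were lowest in glutamine depletion at 154 and 145 TPM. Stip1 was highest in oxidative stress (220.0 TPM, log2 change 0.34) and Ahsa1 in ER stress (187 TPM, 0.16). Cdc37, the co-chaperone for kinases, kept between 197 and 241 TPM. St13, which stabilises the bound state of HSP70, ranged from 191 TPM in ER stress (-0.53) to 353 TPM in osmotic stress (0.35). Chordc1, an HSP90 binding protein, ranged from 51.5 TPM in osmotic stress (-0.59) to 105 TPM in ER stress (0.42). Stub1, the ubiquitin ligase that tags chaperone clients, was highest in control at 115 TPM and lowest in oxidative stress at 88.2 TPM (-0.38). Fkbp4, the other immunophilin, ranged from 95.4 to 145 TPM.

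Of the 3 small heat shock proteins, Hspb1 rose under arsenite, and Hspb1 and Cryab fell under thapsigargin. Hspb1 (chr5:135887919-135889563, plus strand), a filament-binding chaperone also called HSP25 in the mouse, was at 191 TPM in control, 195 in glucose depletion, 228 in glutamine depletion, 165 in hypoxia, 74.1 in ER stress, 579.7 in oxidative stress and 227 in osmotic stress. It rose in oxidative stress (1.59) and fell in ER stress (-1.36). Cryab (chr9:50751325-50756636, plus strand), which encodes αB-crystallin, was at 231, 245, 240.0, 201, 66.4, 350.2 and 378 TPM in the same order. Its fall in ER stress (-1.78) was the largest fall of any member, and its values in osmotic stress (0.71) and oxidative stress (0.60) stayed within 2-fold. Hspb8, which works with Bag3 in the disposal of aggregates, was at 88.5 TPM in control, 165 in oxidative stress (0.89) and 77.7 to 111 in the other libraries. The 3 genes together summed to 511 TPM in control, 252 TPM in ER stress and 1095 TPM in oxidative stress.

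Cryab is also abundant in muscle, and the summed muscle and fibroblast markers were also lower in the ER stress library than in control. The 5 skeletal muscle markers summed to 116 TPM in control and 51.0 TPM in ER stress, and to 92.4 to 187 TPM in the other libraries. Acta1 went from 80.3 to 37.3 TPM and Des from 35.7 to 13.6 TPM, while Myod1, Myog and Myh3 were under 2 TPM in every library. The study reports that Acta1 also varies with cell density in fibroblasts. The 9 fibroblast markers summed to 11425 TPM in control and 6166 TPM in ER stress, against 10269 to 12813 TPM in the other 5. From control to ER stress the summed macrophage markers went from 10.3 to 6.76 TPM. Those of epithelium went the other way, from 5.90 to 11.6 TPM, and those of endothelium from 3.97 to 4.19 TPM. In RNA from a whole culture, fewer cells of a type and less RNA per cell cannot be told apart, and the part of these markers in the falls of Cryab and Hspb1 was not tested. Hspb2 and Hspb6, small heat shock genes outside the 43 that are also known from muscle, went from 3.45 to 0.292 TPM and from 105 to 47.5 TPM in ER stress. Of the 31-base words of Cryab, 14.8% also occur in transcripts of Hspb2, its neighbour.

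Among the 9 HSP40 genes, Dnajb1 and Dnajb4 rose in oxidative stress. Dnajb1 (chr8:83608193-83612653, plus strand), the main HSP40 partner of inducible HSP70, was at 31.3 TPM in control, 31.1 in glucose depletion, 31.8 in glutamine depletion, 38.9 in hypoxia, 22.8 in ER stress, 98.0 in oxidative stress and 26.7 in osmotic stress. The change was 1.62 under arsenite and -0.22 under NaCl, so Dnajb1 lay below control in a library in which Hspa1a and Hspa1b rose. Dnajb4 (chr3:152178511-152210302, minus strand), a close relative, was at 79.3, 70.1, 100.2, 64.6, 35.0, 176 and 84.7 TPM in that order. It rose in oxidative stress (1.14) and fell in ER stress (-1.16).

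The other 7 HSP40 genes stayed within 2-fold in all conditions. Dnaja1, a farnesylated HSP40, had the next largest value in oxidative stress (214 to 359 TPM, log2 change 0.74) and was lowest in ER stress (155 TPM, -0.47). Dnajb5 was at 26.8 TPM in oxidative stress (0.59) and 10.4 TPM in osmotic stress (-0.70). Dnajb2, a neuronal HSP40 that carries clients to the proteasome, was lowest in osmotic stress (19.3 TPM, -0.83). Dnaja2, Dnaja4, Dnajb6 (a suppressor of aggregation) and Dnajc7 had changes between -0.39 and 0.41. The family as a whole had a median of 0.41 in oxidative stress, or 0.56 relative to the median of all genes.

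Bag3 (chr7:128523616-128546981, plus strand), which directs HSP70 clients and Hspb8 to autophagy, was the BAG gene that rose. It was at 71.7 TPM in control, 76.8 in glucose depletion, 78.8 in glutamine depletion, 70.3 in hypoxia, 76.0 in ER stress, 155 in oxidative stress and 100.5 in osmotic stress. Its log2 change was 1.10 under arsenite and 0.48 under NaCl. Bag2, an inhibitor of Stub1, was highest in hypoxia (76.5 TPM, 0.54) and lowest in ER stress (34.1 TPM, -0.60). Bag5 was lowest in osmotic stress (13.6 TPM, -0.92) and highest in ER stress (39.0 TPM, 0.53). Bag1, the exchange factor for which the family is named, lay between 157 and 219 TPM.

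The heat shock factors themselves stayed within 2-fold. Hsf1, the factor that drives the response to unfolded protein, was at 36.0 TPM in control, 34.8 in oxidative stress, 36.8 in osmotic stress, 55.5 in ER stress (0.61) and 28.8 to 34.0 in the other 3. Hsf2, its relative, was at 12.3 TPM in control, 12.8 in oxidative stress, 19.0 in osmotic stress (0.59), 18.6 in ER stress (0.56) and 9.94 to 12.8 in the other 3. Hsf1 mRNA therefore differed by -0.05 and 0.03 on the log2 scale in the libraries in which Hspa1a and Hspa1b rose, and was highest in the library in which they fell. HSF1 is controlled mainly as a protein, which was not measured here.

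The 8 CCT subunits, which form 1 complex in equal numbers, shared small shifts and none passed 2-fold. All 8 were above control in ER stress, by 0.15 (Tcp1) to 0.67 (Cct7) with a median of 0.39, and all 8 had their highest level there. ER stress was the library with the highest level for 33.2% of all genes. In hypoxia 7 of 8 were below control, with a median of -0.27 and a lowest value of -0.47 for Cct3, and 6 had their lowest level there, against 12.2% of all genes. Cct6a, as an example, was at 432 TPM in control, 498 in glucose depletion, 486 in glutamine depletion, 320.3 in hypoxia, 637 in ER stress, 409 in oxidative stress and 339 in osmotic stress. Cct7 was at 278, 281, 297, 285, 442, 339 and 275 TPM in the same order. The summed level of the 8 was 2474 TPM in control, 2097 in hypoxia and 3293 in ER stress.

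In oxidative stress the CCT median was -0.10 (6 of 8 below control), and in osmotic stress it was -0.07 (7 of 8 below). Relative to the median of all genes these turned to 0.06 and 0.05, with 7 and 6 of 8 above, so the sign in both depends on the scaling. CCT levels in the 2 depletions were within 0.21 of control, with medians of 0.10 and 0.09.

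**Figure D3:**
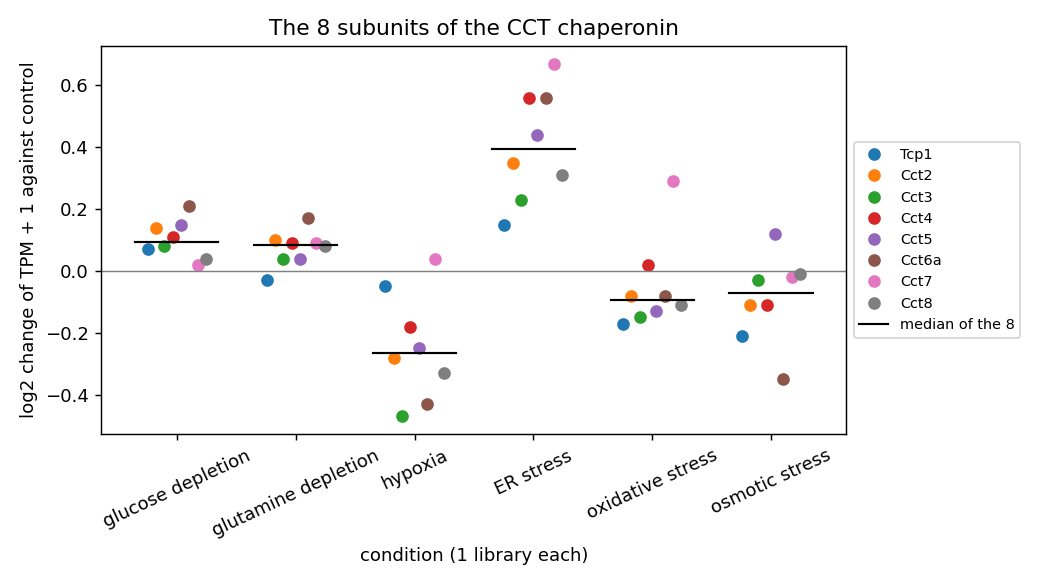
Change of the 8 CCT subunits against the control library in log2(TPM + 1), by condition (1 library each), with a line at the median of the 8. All 8 points are above 0 in ER stress (0.15 to 0.67) and 7 of 8 are below 0 in hypoxia, and no point reaches 1 in either direction.

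Oxidative stress held the highest level for 16 members, against 7.59% of all genes, and these include both HSP90 genes and 4 HSP40 genes besides the 8 that rose. ER stress held the highest level for 18 members of 43, where 33.2% of all genes had theirs, among them Hsf1, Chordc1, Bag5 and all of CCT. It held the lowest level for 11 of 43, close to the 23.9% of all genes, namely Hspa1a, Hspa1b, Hspa8, Fkbp5, St13, Hspb1, Cryab, Dnaja1, Dnajb1, Dnajb4 and Bag2. Of these 11, 7 were highest in oxidative stress. Hypoxia held the lowest level for 16 members, against 12.2% of all genes.

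As a share of the library, the 43 members together took 1.03% in control and 1.54% in oxidative stress, with 1.00% to 1.15% in the other 5. Without Hspa8 the shares were 0.782% in control, 1.03% in oxidative stress and 0.727% to 0.864% in the rest. Small heat shock genes took 0.0511% in control and 0.109% in oxidative stress, and CCT genes 0.247% and 0.238%.

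Arsenite and NaCl were both applied for 3 h, which allows a direct comparison of the 2 libraries. Oxidative stress exceeded osmotic stress by more than 2-fold for 5 members, against 7.86% of all genes, and was lower by that much for 1, against 3.90%. The 5 were Hspa1a (2.39), Dnajb1 (1.84), Hspb1 (1.35), Dnajb5 (1.29) and Dnajb4 (1.05), and the 1 was Hspa4l (-1.14). The Hspa1a and Hspa1b sum was 1.12 higher in oxidative stress, Hsph1 0.97, Hspa8 0.81 and Bag3 0.62. Over the 43 members the median was 0.21, and over all genes it was -0.03. Against control the HSP70 pair rose in both libraries.

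In the 2 depletions and in hypoxia the members stayed near their control levels. The lowest change in glucose depletion was that of Hspa1a (-0.78), a gene whose split from Hspa1b is uncertain, and the highest was 0.28. In glutamine depletion the changes ran from -0.91 (Hspa1a) to 0.46, and 7 of the 8 co-chaperones of HSP90 and HSP70 lay below control, with a median of -0.24, while 8 of the 9 HSP40 genes lay above it, with a median of 0.16. Relative to the median of all genes, 6 of the 8 co-chaperones were below, with a median of -0.15, and 8 of the 9 HSP40 genes above, with 0.25. In hypoxia 31 of 43 members were below control, from -0.60 (Fkbp5) to 0.54 (Bag2), and relative to the median of all genes 28 were.

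Few cytosolic chaperones outside the 43 passed 2-fold. Of 37 others listed by family, 35 passed the level of 2 TPM and 0 rose in any of the 6 conditions. In ER stress 23 of the 35 lay within 0.5 of control, where 29 of the 43 members did, and their changes ran from -1.78 to 0.88. Hspb2 and Hspb6 fell in ER stress, as given above, and Bag4 fell in osmotic stress from 13.7 to 6.15 TPM. Ptges3, the p23 co-chaperone of HSP90, was at 142 TPM in control and 156 TPM in oxidative stress. The median of the list in oxidative stress was -0.12, or 0.04 relative to the median of all genes, where the 43 had 0.19 and 0.35. Both sets were chosen with earlier results of these data known, so this contrast is a description only.

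Genes that HSF1 is known to activate but which encode no cytosolic chaperone numbered 7. Zfand2a, an arsenite-inducible proteasome adaptor, was at 24.3 TPM in control, 18.2 in glucose depletion, 24.2 in glutamine depletion, 20.0 in hypoxia, 66.5 in ER stress, 118 in oxidative stress and 37.1 in osmotic stress. It rose in oxidative stress (2.23) and in ER stress (1.42), where Hspa1a and Hspa1b fell. Ier5, an HSF1 cofactor, rose in osmotic stress (1.29) and glutamine depletion (1.10). Serpinh1, the collagen chaperone, had changes of 0.00 under arsenite and 0.51 in ER stress. Hspd1 and Hspe1, also counted below as mitochondrial chaperones, stayed within 2-fold in every condition. Their changes were -0.02 and 0.17 under arsenite and 0.68 and 0.54 in ER stress.

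Chaperones of other compartments rose chiefly in ER stress. Of 15 ER chaperones, 12 rose in ER stress with a median of 1.76, led by Sdf2l1 (4.22), Dnajb9 (3.98) and Hspa5 (3.44). In oxidative stress 0 of the 15 rose, and their median was -0.49, or -0.33 relative to the median of all genes. Sdf2l1 fell in oxidative stress (-1.26) and in glutamine depletion (-1.3), and Dnajb9 rose in osmotic stress (1.18). Hspa5, the HSP70 of the ER, was at 1165 TPM in control, 12611 in ER stress and 784 in oxidative stress. Of 8 mitochondrial chaperones, Dnaja3 (1.29) and Hspa9 (1.11) rose in ER stress and all 8 were above control there, with a median of 0.76. In oxidative stress their median was -0.01, or 0.15 relative to the median of all genes. Grpel2, a mitochondrial chaperone, fell in osmotic stress (-1.23).

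**Figure D4:**
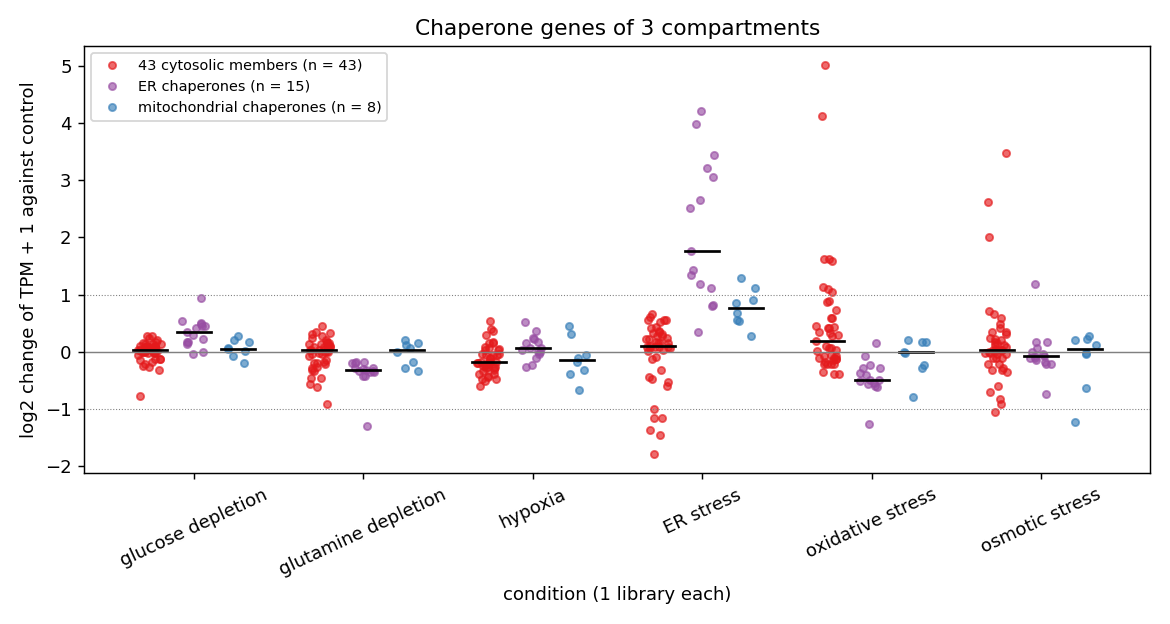
Change against the control library in log2(TPM + 1) for the 43 cytosolic members, 15 ER chaperones and 8 mitochondrial chaperones by condition (1 library each), with lines at the median of each group and dotted lines at 2-fold. In ER stress the ER group has its median at 1.76 and the cytosolic group at 0.10, and in oxidative stress only cytosolic points lie above 1.

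Genes that mark 5 of the 6 stresses, glutamine depletion excepted, were checked against the labels: Hmox1 was at 266 TPM in control and 6055 in oxidative stress, Hspa5 rose in ER stress as above, Bnip3 was at 26.7 and 797 TPM in control and hypoxia, Akr1b3 at 90.5 and 575 TPM in control and osmotic stress, and Txnip at 70.7 and 16.1 TPM in control and glucose depletion. Txnip does not mark glucose depletion alone, since it was at 7.22 TPM in osmotic stress. Nor does Hmox1 mark oxidative stress alone, since it was at 1802 TPM in ER stress (log2 change 2.75). All 9 fibroblast markers were at 6.42 TPM or more in every library, while the markers of macrophages summed to 6.76 to 16.6 TPM, of epithelium to 3.87 to 11.6 TPM and of endothelium to 2.14 to 5.37 TPM. The study's methods describe sorting of MEFs against macrophage surface markers, which the labels do not mention, and of the genes for those markers Ptprc was at 0.280 TPM or less, Adgre1 at 0.110 TPM or less, and Itgam at 2.93 TPM in osmotic stress and 0.0602 TPM or less in the other libraries. Besides the HSP70 pair, transcripts of Hspa8 (44.8%), Hsp90aa1 (51.5%) and Hspb1 (55.4%) share many 31-base words with other genes, chiefly Gm15459, Gm12346 and Hsp25-ps1, which were at 5.52 TPM or less. The values of Dnaja1 (22.6% shared), Dnaja4 (43.3%, chiefly with Wdr61), Stub1 (37.0%, with Jmjd8) and Cct6a (17.3%, chiefly with Psph) may be split with genes at higher levels. Hsph1, Hspa4l, Dnajb1, Dnajb4 and Bag3 share under 1% or none.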

How the data were processed

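The authors quantified paired-end reads from stranded poly(A) libraries with Kallisto (version 0.43.1 in the submitters' processing notes) at default settings on Ensembl release 90 transcripts of GRCm38, and deposited 1 TPM value per gene, the sum of its transcripts. Default settings do not use strand, so overlapping antisense transcripts are not set apart. TPM keeps no read count, so the depth of each library and its counting error are unknown. TPM sum to 1000000 in each library, so a large rise of some genes lowers the share of the rest.

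Here each value was turned into log2(TPM + 1) and the value of the control library was taken off. The pseudocount of 1 TPM and the 2-fold threshold follow the study's methods, and the 12909 genes averaging 2 TPM or more formed the background. With 1 library per condition no test was run. Levels in every library were written out for the members past 2-fold in any condition, which include the 3 marker members (Hspa1a, Hspa1b, Hsph1), with Cct6a and Cct7 as examples chosen after values were seen, and other members were given by value, range or count. The members and lists were chosen with earlier results of these data known. The comparison of oxidative with osmotic stress, the counts of highest and lowest libraries, the background at 10 TPM, the promoter motifs and the shared words were chosen after values were seen. Coordinates and transcripts came from GENCODE M21 (all 43 members matched by identifier), which is not the release the authors used, and promoters from RefSeq on GRCm38.p6. Alternatives were pseudocounts of 0.1 and 5 TPM, no filter or 10 TPM, centring, thresholds of 1.5-fold and 3-fold, leaving out 37 mitochondrially encoded genes, the median of the 7 libraries as reference, and the HSP70 median with Hspa1a and Hspa1b as 1 gene. A gene of the HSF1 list is not reported here. The calls past 2-fold and the centring were tested on simulated data. The promoter search, the shared words and the counts of highest and lowest libraries were not. Values were computed with pandas 2.3.3 and numpy 2.4.6 under Python 3.11.15, and plots drawn with matplotlib 3.10.9.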

Additional observations from a re-analysis of the deposited data

How the results depend on the processing

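No replicate could be left out and no paired analysis was possible because each condition had 1 library, and depth is unknown. Leaving out the filter or raising it to 10 TPM could not alter the counts of members or the sum, because all 43 members pass both levels. Without mitochondrially encoded genes, the 12 counts of members past 2-fold stayed within 1.5 times their values. The 6 changes of the Hspa1a and Hspa1b sum stayed within 0.1 in that setting. No alternative turned the direction of a member's change past 2-fold. At 1.5-fold, 13 members rose in oxidative stress, 6 rose and 5 fell in osmotic stress, 2 rose in ER stress, while 1 fell in hypoxia, 2 without glutamine and 1 without glucose. At 3-fold, 5 rose in oxidative stress, 1 fell in ER stress and 0 fell in osmotic stress. A pseudocount of 0.1 TPM made 1 member fall in glutamine depletion. With 5 TPM, 3 members fell in ER stress and 0 in osmotic stress, and the sum changed by -0.97 in ER stress, 4.29 in oxidative stress and 3.18 in osmotic stress. Centred on the median of all genes, 10 members rose in oxidative stress and 0 fell in osmotic stress, and the sum changed by 4.61 in oxidative and 3.45 in osmotic stress. Against the median of the 7 libraries, 7 rose in oxidative stress (Bag3, at 1.0, did not), 3 fell in ER stress and 0 in osmotic stress, and the sum changed by -0.18 in glutamine depletion, -0.02 in hypoxia, 0.00 in glucose depletion, -0.98 in ER stress, 4.64 in oxidative stress and 3.52 in osmotic stress. Centring and the change of reference shift the values by construction. Why the control library lay above or below the median of the libraries for a given gene was not tested.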
